A study of Mus musculus with 32 samples.

Results

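Gene deserts are long stretches of a genome with no annotated gene. The CTCF peaks described here lie in deserts as drawn from the genes of the deposited RPKM table, and 25.7% of them lie inside a RefSeq gene body. They were chosen from the peak list of mouse embryonic stem (ES) cells expressing GFP-CTCF, called GC. A peak was taken when its centre was more than 50 kb from every gene start in the deposited RPKM table, which holds 24940 genes, and outside every gene body there. The rule took 4108 of the 26729 GC peaks, or 15.4%. Of the rest, 11473 peaks lay inside gene bodies and 11148 lay between genes within 50 kb of a start. The same rule took 2644 of the 15546 peaks (17%) of cells expressing Del8, a GFP-CTCF that lacks zinc finger 8.

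CTCF is a DNA-binding protein with a row of zinc fingers that read its recognition sequence. It stops the loop-extruding cohesin complex, so that pairs of CTCF sites become loop anchors and boundaries between chromosome domains. In gene deserts such sites can frame the distant enhancers of developmental genes, whose regulatory DNA often lies far from the gene.

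All cells were mouse ES cells of strain 129. The ChIP-seq lists compared are from 1 Del8 library and 1 GC library, both made with a home-made antibody against CTCF, so no difference between them could be tested against replicates. RNA-seq came from the corresponding mutant cells, there called d8, with 3 lines and 8 libraries, and from GC cells with 2 lines and 6 libraries. Samples were isolated as triplicates in each line, except for duplicates in d8 line 3. The labels do not say whether untagged CTCF was still made in either genotype, nor how the lines were derived. The series also holds Med-Seq data and ChIP-seq of further genotypes, which were not analysed here.

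The Del8 list was called from 5.59 M tags and the GC list from 8.09 M tags. A Del8 peak needed at least 8 tags and a GC peak at least 9, which amounts to 14.3 and 11.1 tags per 10 M. A weak site could therefore be listed in GC and missing in Del8 at equal binding. RNA-seq libraries held an estimated 14.3 to 16.7 M reads. The cells carried ES cell RNA, with all 10 pluripotency markers above the expression minimum, their sum at 1883 to 2267 RPKM in d8 and 1716 to 2163 RPKM in GC libraries, and Pou5f1 between 449 and 624 RPKM over the 14 libraries. Ctcf RNA was at 23.2 to 37.2 RPKM in the d8 libraries, while GC line 1 had 5.58 to 6.23 RPKM and GC line 2 had 22.9 to 30.8 RPKM. The values of these exons do not separate tagged from untagged RNA. The log2 fold change of Ctcf was 1.21 ± 0.53 (SE; 3 d8 against 2 GC lines; limma adjusted p = 0.193).

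Sequence could be read for the few desert peaks that fall wholly inside a start window of the RefSeq table (GRCm38.p6, the build also called mm10; 250 bases before to 50 after a start). Of the 4108 desert peaks, 46 overlapped such a window and 9 lay wholly inside 1. These starts belong to genes or isoforms that the RPKM table does not hold. Del8 shared 26 of the 46 and 6 of the 9. Of the 9, 8 lie at starts of long noncoding RNAs. The sequences below are shown because they let CTCF core letters be seen in desert peaks that Del8 kept and did not keep. They are 233 bases long, written on the plus strand, and capitals mark AGGNGGC or AGANGGC, which are core letters of the CTCF recognition sequence, on either strand (GCCNCCT or GCCNTCT when read on the other strand). The 2 forms differ in 1 letter, so no run of letters on a strand matches both. The Gm31408 peak (chr9:31559491-31559723), the Gm33327 peak (chr5:106802429-106802661), the 8430419K02Rik peak (chr11:18877576-18877808) and the Gm4319 peak (chr1:72123726-72123958) were shared with Del8.
Gm31408: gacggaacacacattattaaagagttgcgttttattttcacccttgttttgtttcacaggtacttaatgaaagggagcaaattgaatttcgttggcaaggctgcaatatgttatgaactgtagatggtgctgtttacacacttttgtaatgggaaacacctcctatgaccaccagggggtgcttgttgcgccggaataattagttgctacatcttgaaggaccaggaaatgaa
Gm33327: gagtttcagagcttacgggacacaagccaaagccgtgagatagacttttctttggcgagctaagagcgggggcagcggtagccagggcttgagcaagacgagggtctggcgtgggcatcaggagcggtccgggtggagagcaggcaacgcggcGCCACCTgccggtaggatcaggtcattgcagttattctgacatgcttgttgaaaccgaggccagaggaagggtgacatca
8430419K02Rik: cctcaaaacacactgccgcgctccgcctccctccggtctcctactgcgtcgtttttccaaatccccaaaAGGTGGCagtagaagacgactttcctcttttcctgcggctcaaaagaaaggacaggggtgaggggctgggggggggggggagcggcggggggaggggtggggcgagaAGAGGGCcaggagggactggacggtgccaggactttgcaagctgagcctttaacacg
Gm4319: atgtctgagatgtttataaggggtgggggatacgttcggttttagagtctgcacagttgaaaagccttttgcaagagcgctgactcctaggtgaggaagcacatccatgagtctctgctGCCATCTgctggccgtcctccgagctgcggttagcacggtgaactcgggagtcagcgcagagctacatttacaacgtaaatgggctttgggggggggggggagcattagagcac
The Gm11998 peak (chr11:11557209-11557441), the Gm35827 peak (chr15:24724727-24724959) and the Mir100hg peak (chr9:41474686-41474918) had no Del8 peak.
Gm11998: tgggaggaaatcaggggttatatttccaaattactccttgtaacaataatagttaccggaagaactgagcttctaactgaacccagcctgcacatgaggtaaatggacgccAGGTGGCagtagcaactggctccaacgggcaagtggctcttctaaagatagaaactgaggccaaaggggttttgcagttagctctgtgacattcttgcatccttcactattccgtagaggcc
Gm35827: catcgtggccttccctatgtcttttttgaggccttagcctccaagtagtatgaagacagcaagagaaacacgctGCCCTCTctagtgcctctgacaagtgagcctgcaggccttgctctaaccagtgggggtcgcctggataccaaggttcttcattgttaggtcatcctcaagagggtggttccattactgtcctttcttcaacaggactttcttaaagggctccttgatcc
Mir100hg: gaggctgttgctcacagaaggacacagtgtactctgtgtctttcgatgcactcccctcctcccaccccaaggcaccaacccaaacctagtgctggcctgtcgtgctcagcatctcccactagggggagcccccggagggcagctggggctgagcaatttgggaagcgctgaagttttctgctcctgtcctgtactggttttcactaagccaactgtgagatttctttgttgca

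Gm4319 and Gm11998 hold a run of core letters 6 and 2 bases from the peak centre, while no capitals appear in Gm31408, a shared peak, or in Mir100hg, which had no Del8 peak. Gm31408 holds AGGGGGT and Mir100hg holds AGGGGGA, which differ from AGGNGGC only at the last letter and are unmarked. Missing capitals therefore do not mean that a sequence resembling the core is absent. AGGNGGC alone was present in 4 of the 9 desert peaks inside a window (44.4%; Wilson 95% interval 18.9 to 73.3). It was present in 65.2% of 333 other GC peaks that lie inside a window and in 21.8% of 29996 start windows without a GC peak within 1 kb, read over the same 233 bases. It was in 29.4% of all 32851 windows at their full length. AGANGGC was added after the sequences had been seen, and with either form allowed the shares were 7 of 9 desert peaks (77.8%; 45.3 to 93.7), 78.7% of the other GC peaks and 33.7% of windows without a peak. Among the other GC peaks, either form was in 82.5% of those shared with Del8 and in 70.2% of those not shared. With 9 sequences the desert share cannot be told from that of other peaks, and peaks at RefSeq starts do not stand for the other desert peaks.

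Desert peaks were far from genes but seldom extremely far. Their median distance to the nearest start was 102 kb, with quartiles of 69.4 and 185.8 kb and a maximum of 1911 kb. The numbers thinned with distance, with 2014 peaks at 50 to 100 kb, 1151 at 100 to 200 kb, 718 at 200 to 500 kb, 181 at 500 to 1000 kb and 44 beyond 1000 kb. At the edge of the rule, the nearest members lay at 50004, 50016 and 50023 bases from a start and the nearest peaks left out at 49968, 49962 and 49947 bases. The share overlapped by a Del8 peak was 44.0% of 582 members at 50 to 60 kb and 41.9% of 773 intergenic peaks at 40 to 50 kb.

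The label "desert" holds against the RPKM table and in part against RefSeq. Inside a RefSeq gene body lay 1056 of the desert peaks (25.7%), among them 522 in long noncoding RNAs and 492 in protein-coding genes. Chromosome 18 has no start windows in the RefSeq table used, which leaves 3971 desert peaks to check for distance. Of these, 2311 (58.2%) were over 50 kb from every RefSeq start and 1904 (48.0%) were also outside every RefSeq body. The shared share was 33.8% (31.7 to 35.9) for these strictest 1904 and 40.6% with the quintiles of the list weighted equally.

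Desert peaks were shared with Del8 less often than GC peaks as a whole, and they stood lower in the list. A GC peak is called shared when a Del8 peak overlaps it by at least 1 bp. Of the 4108 desert peaks 1516 were shared, or 36.9% (Wilson 95% interval 35.4 to 38.4), while the share was 38.1% (37.2 to 39.0) inside gene bodies, 47.8% (46.9 to 48.7) in the other intergenic peaks and 42% over all GC peaks. All these intervals cover counting error only, not the spread between cultures. The deposited lists hold no usable score, and their order was taken as an order of strength.

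Within quintiles of the list the 3 classes lay close together. In the first quintile (20%) of the GC list, 74.7% of 565 desert peaks were shared. The share was 57.1% of 676 in the second quintile, 39.7% of 850 in the third, 25.1% of 952 in the next and 12.4% of 1065 in the last. Gene body peaks had 73.1, 54.3, 37.0, 23.9 and 12.5% in the same 5 quintiles, and the other intergenic peaks 77.8, 58.4, 41.9, 26.4 and 14.4%. In every quintile the interval of the desert share overlapped that of both other classes. Desert peaks made up 10.6% of the first quintile and 19.9% of the last, and their median position was 15826, against 14317 in gene bodies and 11384.5 in the other intergenic peaks. With the quintiles weighted equally, the shared shares were 41.8% for desert peaks, 40.2% in gene bodies and 43.8% in the other intergenic peaks.

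**Figure D1:**
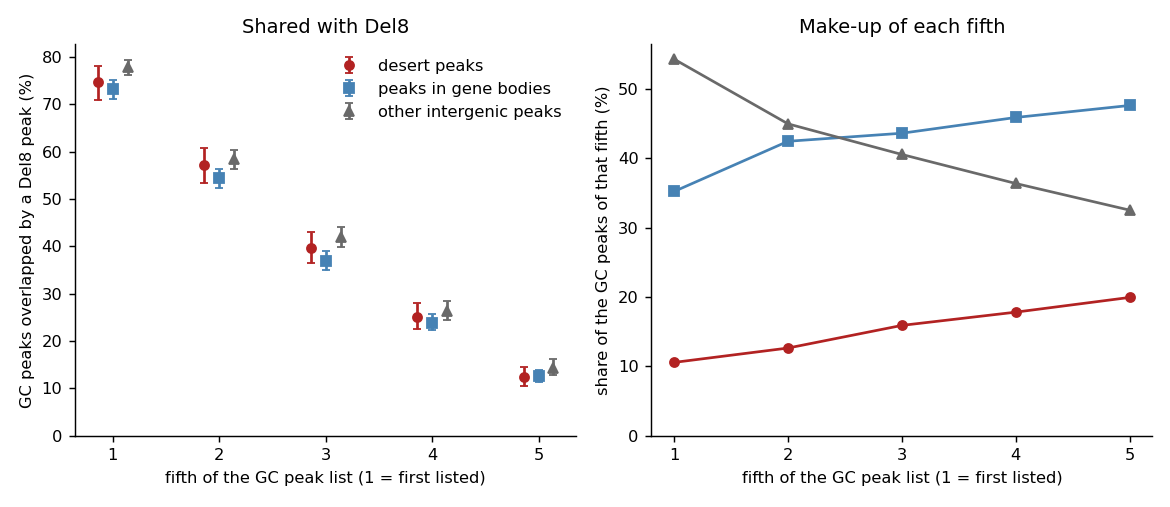
Left, percent of GC peaks overlapped by a Del8 peak in each quintile of the GC list, for desert peaks (circles), peaks in gene bodies (squares) and other intergenic peaks (triangles), with Wilson 95% intervals for counting error. Right, percent of each quintile made up by each class. The 3 classes fall together along the list, and the desert share of a quintile is 10.6% in the first and 19.9% in the last.

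Nearly all desert peaks at the head of the list were shared. All 15 desert peaks among the first 100 GC peaks were shared, as were 97 of those 100 in all. Among the first 500 it was 43 of 45 desert peaks (95.6%), and 92.0% of all 500. The peaks listed first and second lie on chromosome 2 at 98667001-98667233 and 98662343-98662575, between Lrrc4c and B230118H07Rik, over 1190 kb from any start. Their Del8 mates stand at positions 1 and 3 of the Del8 list. The desert peaks at position 4 (chromosome 14, 19417707-19417939, between Ube2e2 and Gm5458) and position 5 (chromosome 12, 3109897-3110129, before Rab10os) have the same positions, 4 and 5, in the Del8 list. The peak caller was given no control library, and whether these peaks are CTCF sites was not tested. The next, on the X chromosome between Chrdl1 and Pak3 (143482943-143483175), stood at position 15 of the Del8 list and 18 of the GC list.

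A few strong desert peaks had no Del8 counterpart. The first was at position 292 (chromosome 13, 9846889-9847121), 82.5 kb from the nearest start, between Zmynd11 and Chrm3, which encodes a muscarinic acetylcholine receptor. The next 3 were all on chromosome 8. They stood at position 325 between Fbxo8 and AV026068 (56616304-56616536), at 576 between Gm5347 and Fat1 (44026032-44026264), and at 577 between Naf1 and Nat1 (66914186-66914418). The fifth, at position 701, lay on chromosome 4 between 1700095A21Rik and Rex2 (146740708-146740940). In all, 143 of the 565 desert peaks of the first quintile were absent from the Del8 list.

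Mates lay close together, as the overlap that defines them requires. The centres of Del8 and GC mates lay a median of 31 bp apart for the 1516 shared desert peaks and 29 bp for the 9702 other shared peaks, with 90% within 89 and 91 bp. Of the 422 shared desert peaks from the first GC quintile, 187 had a mate in the first Del8 quintile, 117 in the second and 20 in the last. Of the 132 shared ones from the last GC quintile, 4 had a mate in the first Del8 quintile and 32 in the last.

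Up to 1000 kb from a start, sharing was lower the deeper the desert. It was 42.1% (40.0 to 44.3) at 50 to 100 kb from a start, 34.8% (32.1 to 37.6) at 100 to 200 kb, 29.9% (26.7 to 33.4) at 200 to 500 kb and 22.7% (17.2 to 29.3) at 500 to 1000 kb. Beyond 1000 kb it was 27.3% of 44 peaks (16.3 to 41.8). The median list position moved too, being 14006, 15834, 18501, 20684 and 21718 in these 5 bins. With quintiles weighted equally, the shares of the first 4 bins were 43.2, 40.8, 40.4 and 36.7%, the last of them resting on a smallest quintile of 7 peaks.

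The Del8 list had its own desert peaks. Of its 2644 desert peaks 1128 overlapped no GC peak (42.7%; 40.8 to 44.6), against 24.8% of the other Del8 peaks and 27.8% of all Del8 peaks. These Del8-only peaks were weak ones, with 1006 of them (89.2%) in the last 2 quintiles of the Del8 list. Del8-only peaks of all classes stood there too, with 1566 in the fourth quintile and 2162 in the last, of 4328 in all. Within the last quintile of that list, 20.5% of desert peaks had a GC mate (17.8 to 23.5), against 29.7% (27.3 to 32.1) in gene bodies and 40.0% (36.9 to 43.2) in the other intergenic peaks. In the first quintile the shares were 97.4, 99.2 and 99.4%. The Del8-only share of desert peaks was 29.2% at 50 to 100 kb from a start, 43.7% at 100 to 200 kb, 58.3% at 200 to 500 kb, 75.4% at 500 to 1000 kb and 77.8% beyond. Only 16 of the 1128 had a GC peak centre within 1 kb. Without replicate Del8 libraries, sites gained in the mutant and chance calls in long deserts cannot be told apart.

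**Figure D2:**
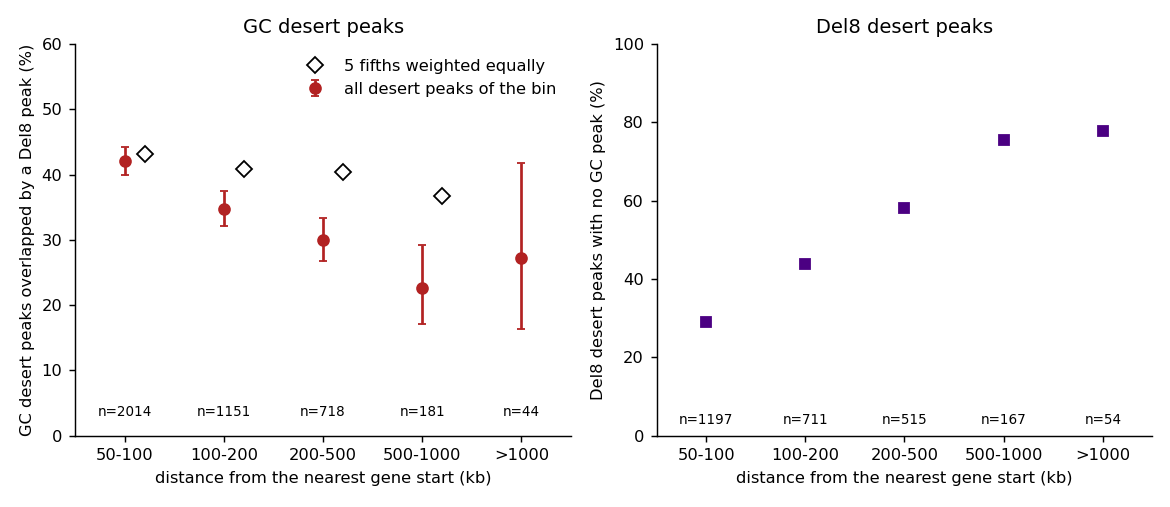
Left, percent of GC desert peaks overlapped by a Del8 peak by distance from the nearest gene start, with Wilson 95% intervals (circles) and with the 5 quintiles of the list weighted equally (diamonds; not shown beyond 1000 kb, where a quintile holds 2 peaks). Right, percent of Del8 desert peaks that overlap no GC peak, 29.2% in the nearest bin and 77.8% in the farthest.

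Desert peaks were sparse and unevenly spread over chromosomes. Desert sequence between genes made up 41.9% of the chromosome spans, 1112 of 2657 Mb. It held 2.36 Del8 peaks and 3.68 GC peaks per Mb, and the sequence outside deserts held 8.34 Del8 peaks and 14.6 GC peaks per Mb. The Y chromosome is counted in these figures and lowers the desert densities. It has 86.3 Mb of desert with 3 GC desert peaks, or 0.03 per Mb. Chromosome 8 stood apart with 5.46 Del8 and 7.21 GC desert peaks per Mb (Poisson 95% interval of the GC value 6.52 to 7.96, counting error only). The next GC densities were 5.05 on chromosome 2 and 5.04 on chromosome 5. The lowest were 1.12 on the X chromosome, 2.83 on chromosome 14 and 3.07 on chromosome 3, leaving out the Y chromosome with 3 desert peaks in all. Outside deserts, GC density was also high on chromosome 8, at 20.8 per Mb, and on chromosome 11, at 22.3 per Mb. Chromosome 11 did not stand apart in its deserts, with 4.90 per Mb. How many copies of a chromosome the cells carry was not tested.

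In the last quintile of the list, the desert peaks of chromosome 8 were shared less often than those elsewhere, with intervals that did not overlap. The intervals overlapped in the other 4 quintiles. For the 396 desert peaks of chromosome 8 the share was 73.0% in the first quintile, 46.4% in the second, 35.8% in the third, 14.5% in the next and 5.43% (2.65 to 10.8) in the last. On the chromosomes other than 8 and 11 the shares were 75.1, 58.1, 39.9, 25.5 and 13.4% (11.4 to 15.8). Del8-only peaks were also frequent on chromosome 8, where they made up 170 of 300 Del8 desert peaks (56.7%). That chromosome held 15.1% of all Del8-only desert peaks (13.1 to 17.3), 300 of the 2644 Del8 desert peaks and 9.64% of the GC desert peaks. The Del8-only share of desert peaks was next highest on chromosome 14 (52.3%), and it was 42.7% over all chromosomes. Over whole chromosomes the shared share was highest on chromosome 6 (42.9%), 2 (42.1%) and 9 (41.5%). It was lowest on chromosome 14 (32.1%), 15 (32.7%) and 17 (32.7%), leaving out the Y chromosome. These chromosome intervals overlap, for example 36.8 to 49.2 on chromosome 6 and 25.3 to 39.7 on chromosome 14. On 18 of the chromosomes plotted the desert share was below that of all other GC peaks of the same chromosome, and above it on chromosome 6 and the X chromosome.

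**Figure D3:**
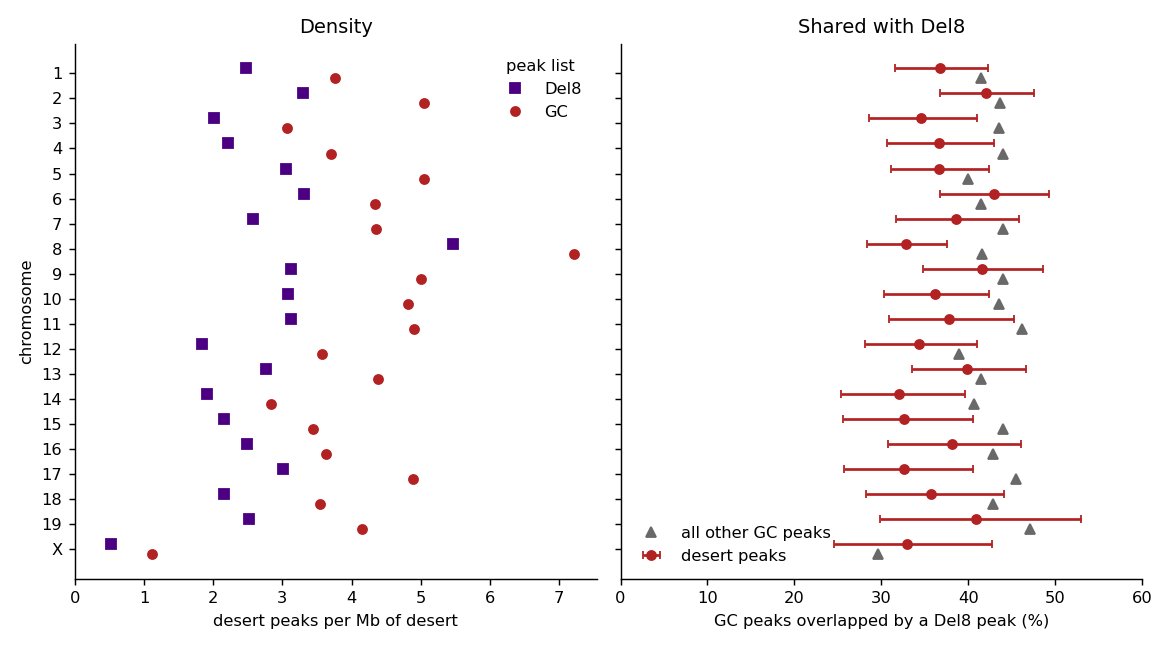
Left, desert peaks per Mb of desert sequence on each chromosome in the Del8 list (squares) and the GC list (circles). Right, percent of GC desert peaks overlapped by a Del8 peak, with Wilson 95% intervals (circles), and the same percent for all other GC peaks of the chromosome (triangles). The Y chromosome is left out, and chromosome 8 has the highest density in both lists.

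Within deserts the peaks were strung out, with some tight groups. The nearest peak of the same list was a median of 68.5 kb away from a Del8 desert peak and 32.6 kb from a GC desert peak. For other GC peaks it was 14.7 kb in gene bodies and 11.3 kb between genes. For other Del8 peaks it was 27.5 kb in gene bodies and 21.3 kb between genes, so the wider Del8 spacing was not limited to deserts. Between neighbouring desert peaks of 1 interval the median spacing was 63.7 kb in Del8 and 32.8 kb in GC (n = 1153 and 2166). Among GC desert peaks 602 (14.7%) had a peak within 5 kb, and 463 (11.3%) had none within 200 kb. The shared share of these 602 was 46.5%, and it was 45.2% at 5 to 20 kb, 37.2% at 20 to 50 kb, 32.2% at 50 to 100 kb and 25.3% beyond 100 kb. Isolated peaks also stood lower in the list, at a median of 19309 beyond 100 kb and 11321 within 5 kb. With quintiles weighted equally, the 5 shares were 43.1, 44.6, 42.7, 40.8 and 38.1%.

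The desert peaks fell into 1942 intervals free of genes of the RPKM table, called gene-free here. Of these, 1930 lie between genes and 12 at chromosome ends. The median length was 0.247 Mb. A single desert peak was found in 957 intervals, 480 held 2 and 505 held 3 or more, up to 15. Sharing was mixed within most of the larger intervals: of the 505, 12 had every desert peak shared, 90 had none shared and 403 had some. Among the intervals between genes that held a desert peak, the 20 longest (2.95 Mb or more) held 81 desert peaks, or 1.13 per Mb of interval. Intervals without a desert peak were not ranked, so this is not the density of the longest deserts at large.

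The 8 fullest intervals differed in how many peaks they kept, and 5 of them are on chromosome 8. Their limits follow the gene forms of the RPKM table. Start coordinates equalled those of RefSeq for 64.2% of the genes matched. Whether a longer RefSeq form of a neighbour, such as Gse1 or Ank3, reaches into its interval was not checked. The fullest lies between A330074K22Rik and Gse1, which encodes a coiled-coil protein of a nuclear repressor complex, and holds 15 desert peaks in 0.308 Mb (120228231-120535856). Of these 8 were shared (53.3%; 30.1 to 75.2), and 9 stood in the first quintile of the list. The interval between Cdk1, the kinase that drives mitosis, and Ank3, an ankyrin of the neuronal membrane skeleton, held 13 (chromosome 10, 69352913-69925531), of which 6 were shared. Another 3 intervals on chromosome 8 held 11 each, with 4 shared between Psmd7 and Lncbate1, 2 between Terf2ip and Gm26994, and 1 between Foxl1 and 1700018B08Rik. The last interval had 4 of its 11 peaks in the first quintile.

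The widest of the 8, between Got2 and Gm15679 on chromosome 8 (95888366-99011886), spans 3.12 Mb. It held 15 Del8 desert peaks and 12 GC desert peaks, with 2 GC peaks shared and 13 Del8 peaks of their own. No other interval among the 8 had more Del8 than GC peaks.

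**Figure D4:**
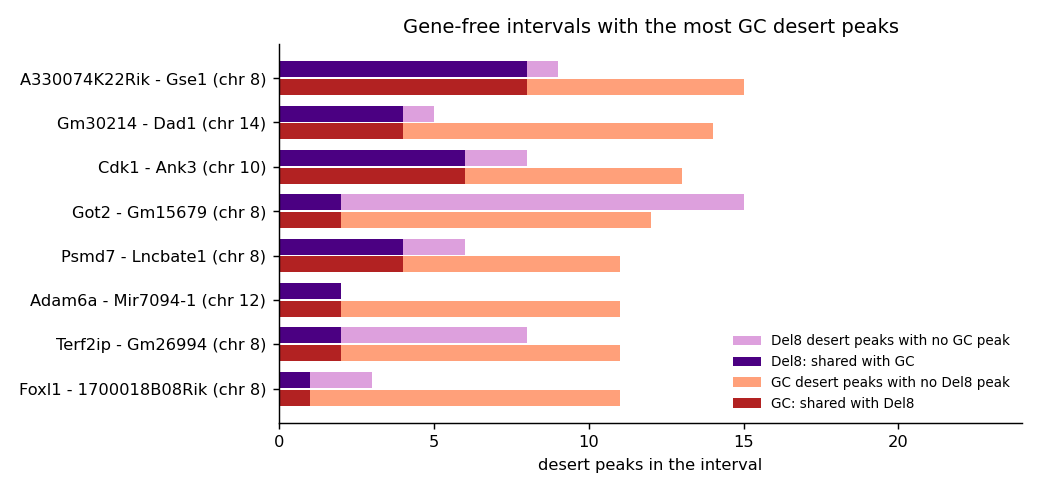
Desert peaks in the 8 gene-free intervals with the most GC desert peaks. For each interval the upper bar counts Del8 peaks and the lower bar GC peaks, with the shared part dark. Only the Got2 to Gm15679 interval has a longer Del8 bar, 15 against 12.

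Another 2 of the 8 hold no gene of the RPKM table but many antigen receptor segments in RefSeq. The interval between Gm30214 and Dad1 on chromosome 14 (53039467-54235484) lies in the T cell receptor alpha and delta locus, with 157 variable, diversity or joining segments in RefSeq, and held 14 desert peaks, 4 of them shared. The interval between Adam6a and Mir7094-1 on chromosome 12 (113546415-114469406) lies in the immunoglobulin heavy chain locus, with 75 segments, and held 11, of which 2 were shared. CTCF sites in these loci are known to shape the rearrangement of the segments in lymphocytes. Over these loci and the kappa, beta and gamma loci, 8 such intervals held 42 desert peaks, 12 of them shared (28.6%; 17.2 to 43.6). These were weak peaks, with 1 in the first quintile, 30 in the last 2 quintiles and a median position of 20792.

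The desert peaks had 3462 flanking genes, defined as the genes on either side of each interval. Gene families were unequally represented among them, counted over all members in the table, expressed or not. Families were taken by gene symbol. The developmental transcription factors therefore include Sox2ot, a noncoding RNA. The synaptic adhesion genes include other leucine-rich repeat genes whose symbols start with Lrrc, such as Lrrc28. Flanking genes made up 13.9% of all genes, 37.5% of the glutamate and GABA receptor genes (12 of 32), 25.5% of ion channel genes (36 of 141), 25.1% of developmental transcription factor genes (48 of 191), 21.6% of synaptic adhesion genes (22 of 102) and 16.1% of cadherin and protocadherin genes (15 of 93). They made up 0.976% of olfactory receptor genes (11 of 1127), 3.93% of vomeronasal receptor genes (13 of 331) and 2.86% of defensin genes (2 of 70), families that sit in dense clusters. Family members that neighbour each other share an interval, so these shares are a description.

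Many flanking genes were at low levels in these cells, as were genes at large. Of the 3462, 1824 (52.7%) had under 1 RPKM in both genotypes, against 50.0% of all genes, and 482 (13.9%) were listed at 0 in every library, against 16.6% of all genes. The median level of the 1638 tested genes was 7.73 RPKM, against 10.1 RPKM for all 12468 genes tested.

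Flanking genes were called different between d8 and GC lines about as often as genes at large. The fit compared 3 d8 with 2 GC lines over all 12468 genes, and 139 of the 1638 flanking genes passed (8.49%), near the background of 8.76%. In d8, 69 flanking genes were higher (4.21%; background 3.02%) and 70 were lower (4.27%; background 5.74%). Line means did not overlap between d8 and GC for 757 of the flanking genes (46.2%; background 46.2%). The median log2 fold change was 0.01 in flanking genes and -0.02 in all genes. All 24 flanking genes called on chromosome 11 were lower in d8, and over that chromosome 387 of the 1067 genes tested were lower and 2 higher, with a median log2 fold change of -0.40. Off chromosome 11 the flanking genes called were 115 of 1568 (7.33%), against a background of 6.17%.

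The calls rest on few lines. Among flanking genes 2 calls were left when GC line 1 was dropped and 66 when GC line 2 was. Dropping d8 line 1 left 12 calls, d8 line 2 left 69 and d8 line 3 left 3. Over all genes tested, leaving out GC line 1 or d8 line 3 likewise left 27 and 30 calls in place of 1092.

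The share of called genes was 7.34 to 9.52% whether or not the desert peaks beside them were shared. Among genes beside intervals with no shared desert peak 54 of 664 were called (8.13%), beside intervals with some shared 59 of 620 (9.52%), and beside those with every peak shared 26 of 354 (7.34%). Genes whose nearest desert peak was not shared were called in 9.18% of 969 and those whose nearest was shared in 7.47% of 669. Beside 5 or more desert peaks it was 22 of 178 genes (12.4%), and beside 1 desert peak 56 of 716 (7.82%). Differences between these groups were not tested.

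Of the tested genes beside the 8 fullest intervals, Gse1 and Got2 passed, while Dad1, Cdk1, Ank3, Psmd7 and Terf2ip did not. The share that passed over all genes tested was 8.76%. Gse1 had 25.7 to 35.1 RPKM in the d8 libraries (median 31.6), against 20.6 to 29.5 RPKM in the GC libraries (median 22.3). Its line means did not overlap, and it was higher in d8 by 0.44 ± 0.10 on the log2 scale (SE; adjusted p = 0.0477). Dad1, Cdk1, Ank3, Psmd7 and Terf2ip had log2 fold changes of -0.06, -0.15, -0.11, -0.13 and -0.03 (adjusted p from 0.25 to 0.906). Most of the other neighbours were at or near 0 RPKM and were not tested, Foxl1 among them, a forkhead factor of the gut mesenchyme.

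Got2 also passed, with the lowest log2 fold change of the flanking genes at the pseudocount of 1 used here. At a pseudocount of 0.1 Got2 was at -2.03, while Col1a2, Nog and Cyp26a1 were lower. Got2 encodes the mitochondrial aspartate aminotransferase. Its level was 9.76 to 15.6 RPKM in the 8 d8 libraries (median 13.5), against 46.7 to 63.8 RPKM in the 6 GC libraries (median 55.9). No d8 library came near a GC library. The log2 fold change was -1.96 ± 0.10 (SE; 3 d8 and 2 GC lines; adjusted p = 0.00136), and it passed in all 14 alternative fits. The nearest of its 12 desert peaks, 63.5 kb away, was shared with Del8.

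Of the flanking genes called, 11 of the 12 with the highest log2 fold changes and the 12 with the lowest are described next. The highest was Gata4. Gata4, a zinc finger factor of endoderm and heart, had 4.26 to 10.0 RPKM in d8 (median 6.18), against 0.847 to 2.16 RPKM in GC (median 1.52). The groups did not overlap, and the log2 fold change was 1.58 ± 0.20 (adjusted p = 0.0159). Otx2, the homeobox factor of forebrain and early epiblast, was at 27.8 to 79.6 RPKM in d8 (median 62.1), against 11.5 to 44.8 RPKM in GC (median 30.1). Its libraries overlapped while its line means did not, and the change was 1.04 ± 0.24 (adjusted p = 0.0462). Neither the 1 desert peak beside Gata4, at 113 kb, nor the 2 beside Otx2, the nearer at 80.5 kb, were shared. Primitive endoderm markers, a list of 6 that includes Gata4, were summed. Their sum ranged from 10.2 to 80.6 RPKM in d8 libraries and from 7.41 to 13.1 RPKM in GC libraries. Of the 4 tested, 1 was higher, Gata4 itself (background 3.02%). The part of these markers in the Gata4 result was not tested.

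Abcc4, an exporter of organic anions and cyclic nucleotides, had 24.6 to 36.0 RPKM in d8 (median 32.5), against 10.5 to 18.2 RPKM in GC (median 15.6). These did not overlap (log2 fold change 1.07 ± 0.15; adjusted p = 0.0187), and the desert peak nearest to it, at 62.0 kb, was shared. D1Pas1, a DEAD-box RNA helicase, had 8.25 to 19.1 RPKM in d8, against 1.88 to 5.61 RPKM in GC (1.52 ± 0.32; adjusted p = 0.0363). D1Pas1 closely resembles Ddx3x, so its counts are uncertain.

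Grik3, a kainate receptor subunit with 5 desert peaks beside it, 2 of them shared, had 7.82 to 14.5 RPKM in d8 (median 11.7), against 3.36 to 6.96 RPKM in GC (median 5.83). The groups did not overlap (0.91 ± 0.17; adjusted p = 0.0298). Rasd2, a small GTPase of the striatum, had 5.62 to 13.4 RPKM in d8 and 2.63 to 5.34 RPKM in GC (1.11 ± 0.17; adjusted p = 0.0212). Sh3gl3 (an endophilin; 1.11), Syt13 (a synaptotagmin; 1.07) and Cacna1b (the pore of the N-type calcium channel; 0.88) were also higher, as were Plekhg1, a guanine nucleotide exchange factor (0.92), and Wnk2, a kinase (0.90), all as log2 fold changes. Of the 11 genes named here as higher, 9 had their lowest d8 value in library 2B of line 2 and 8 their lowest GC value in library 2C. Without these 2 libraries the flanking genes called were 154 in place of 139 (9.4%, background 10.0%).

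Of the 12 lowest, 2 encode collagens. Col1a2, a chain of type I collagen, was at 0.05 to 0.494 RPKM in d8 (median 0.223), against 1.53 to 11.2 RPKM in GC (median 2.24). The groups did not overlap (log2 fold change -1.69 ± 0.18; adjusted p = 0.0134). At such low levels log2(RPKM + 1) understates a change, and at a pseudocount of 0.1 the value was -3.25 for Col1a2 and -1.87 for Itgb3, while Cav1 (-1.76) did not pass (adjusted p = 0.0599). Col5a1 (-1.38), Cav1, which forms caveolae (-1.25), and Itgb3, an integrin (-1.12), fell too. Markers of fibroblasts or feeder cells, 8 genes that include Col1a2, were summed. Their sum was at 6.87 to 10.0 RPKM in d8 libraries and 16.3 to 48.6 RPKM in GC libraries. Of the 6 tested, 3 were lower in d8 (background 5.74%). None of the 8 was at 0 in all libraries. Their part in these results was not tested, and fewer cells of a type cannot be told from less RNA per cell. Without GC library 2C, the one with the highest sum, 113 flanking genes were called (6.91%, background 7.99%).

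Kit, the receptor for stem cell factor, lies beside 4 desert peaks, 2 of them shared, the nearest 202 kb away. It had 1.60 to 3.87 RPKM in d8 (median 2.89), against 6.76 to 17.9 RPKM in GC (median 10.0), with no overlap (-1.58 ± 0.18; adjusted p = 0.0151). Nog, the BMP antagonist noggin, had 0.177 to 0.964 RPKM in d8 and 1.72 to 5.47 RPKM in GC (-1.29 ± 0.21; adjusted p = 0.0242). Cyp26a1, which breaks down retinoic acid, had 0.261 to 0.936 RPKM in d8 and 0.846 to 4.99 RPKM in GC, with overlap of the libraries (-1.19 ± 0.26; adjusted p = 0.0397). Both were at low levels in d8 too, and at a pseudocount of 0.1 the values were -2.16 for Nog and -2.14 for Cyp26a1.

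Pmp22, a myelin membrane protein beside 6 desert peaks, had 1.77 to 5.89 RPKM in d8 (median 4.22) and 8.79 to 32.4 RPKM in GC (median 13.2), a log2 fold change of -1.65 ± 0.25 (adjusted p = 0.0195). Pmp22, Nog, Mmd (-1.13) and Itgb3 are on chromosome 11, and their changes stand beside that chromosome's median of -0.40. With each chromosome centred the log2 fold changes were -1.26 for Pmp22, -0.89 for Nog, -0.74 for Mmd, which then did not pass (limma adjusted p = 0.1), and -0.72 for Itgb3. Cpe, a carboxypeptidase that trims peptide hormones, fell by 1.52 on the log2 scale. The noncoding RNA 2010204K13Rik on the X chromosome had 6.12 to 11.3 RPKM in d8 and 23 to 44.6 RPKM in GC (-1.83 ± 0.18; adjusted p = 0.0118).

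**Figure D5:**
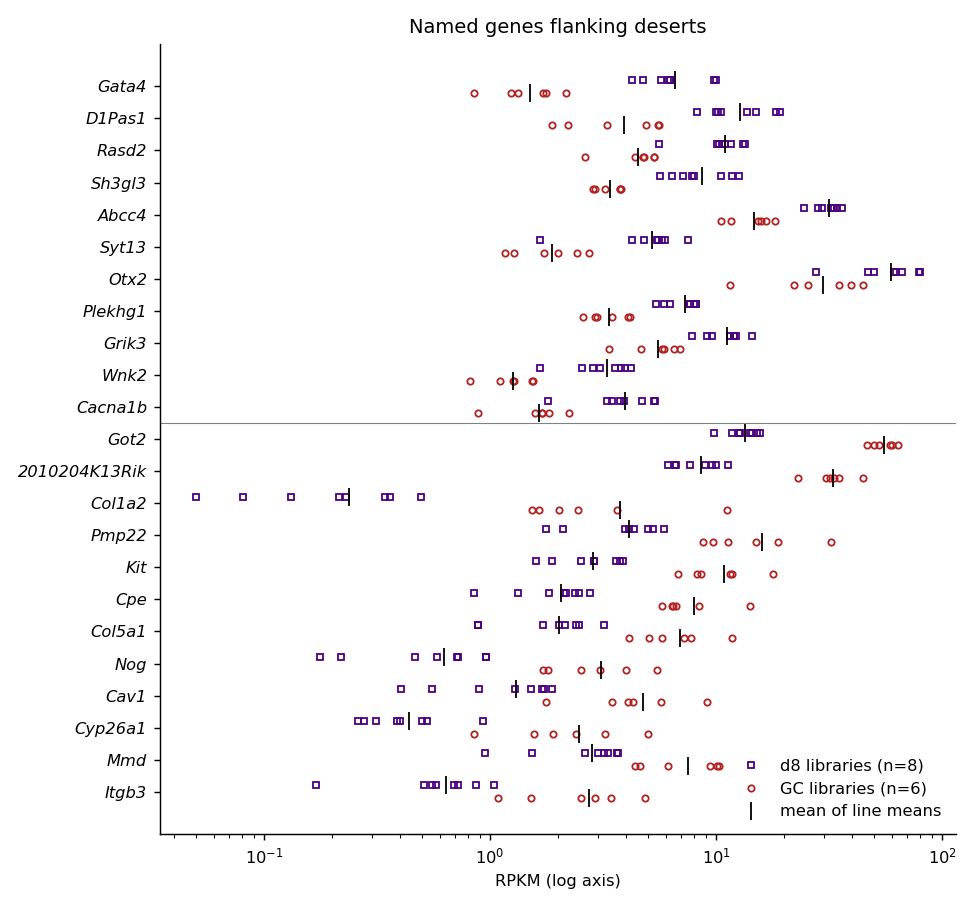
RPKM on a log axis in each d8 library (squares, n = 8) and each GC library (circles, n = 6) for 11 of the 12 highest and for the 12 lowest log2 fold changes among flanking genes, with ticks for the mean of the line means. The groups of libraries overlap for Syt13, Otx2, Cacna1b, Cav1 and Cyp26a1 and not for the other 18.

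Few members of the gene families beside deserts were expressed enough to test, 30 in all. Of these 3 passed, each higher in d8: Grik3, Cacna1b and Foxd3, a forkhead factor of pluripotent cells and neural crest. The background over all genes was 8.76% in either direction and 3.02% higher in d8. Foxd3 had 8.94 to 18.3 RPKM in d8 (median 16.3), against 5.09 to 10.6 RPKM in GC (median 8.53), with overlapping libraries (log2 fold change 0.79 ± 0.19; adjusted p = 0.0489). Of the 5 desert peaks beside it 2 were shared. The limma test called none of 4 cadherin and protocadherin genes (2 had an unadjusted p under 0.05). It called none of the 5 genes listed as synaptic adhesion genes. Of these, 1 was under 0.05, Lrrc28, a leucine-rich repeat gene taken in by its symbol. Among the 13 genes tested as developmental transcription factors, 7 had an unadjusted p under 0.05, all of them higher in d8. The 7 include the noncoding RNA Sox2ot, taken in by its symbol (log2 fold change 0.56; limma adjusted p = 0.0542). Of the 13, 1 passed the adjusted threshold. Over all 1638 flanking genes tested, 481 had an unadjusted p under 0.05, 270 of them higher in d8. No share over all genes was computed at the unadjusted threshold, so these unadjusted counts have no background to be read against. Foxp1, at 13.0 to 15.0 RPKM in d8 and 9.08 to 15.5 RPKM in GC, did not pass (0.10 ± 0.08; adjusted p = 0.48).

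The genes of CTCF and the cohesin complex bear on how a desert site would act, and 3 of 16, Nipbl, Wapl and Pds5b, themselves flank a desert with a peak. Of 15 tested, 1 passed (6.67%; background 8.76%), Stag2, a cohesin subunit that flanks none. It had 33.2 to 47.3 RPKM in d8 (median 42.6), against 24.4 to 34.4 RPKM in GC (median 31.7), and the log2 fold change was 0.45 ± 0.10 (adjusted p = 0.0396).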

How the data were processed

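Peak lists came from 1 Del8 and 1 GC library. Per the file headers, the authors called them with HOMER findPeaks (factor style; false discovery rate 0.001), 4-fold over the surrounding 10000 bp, with no control library named. Peaks are 247 bp (Del8) and 233 bp (GC) wide. Every deposited score is 1, so list order stands for strength; it follows the peak numbers within each chromosome (lowest Spearman rho 0.957 for Del8 and 0.962 for GC, over 20 chromosomes each). The build was taken as mm10, since 8.76% of GC peaks lay within 1 kb of a start and 3.26% after a shift by 100 kb. Coordinates are 1-based.

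The deposited RPKM values were counted by the authors over mm10 exons with HOMER, per the file headers, with no strand setting named, which leaves overlapping antisense genes unseparated. Per the submitters' processing notes, tools included Bowtie, HISAT2, SAMtools and deepTools. Low values are whole multiples of 1 read (100% within 0.1 read), which gave the depths. In another deposited table, 5 columns match no sample and were not used.

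Libraries were averaged per line, since lines are the independent unit. Genes averaging 1 RPKM or more in d8 or GC lines were fitted with limma 3.58.1 (R 4.3.3; variance trend, two-sided) on log2(RPKM + 1), with Benjamini-Hochberg adjustment over all 12468 genes and a threshold of 0.05; fold changes are on that scale and means ± SD are over lines. The fit was tested on simulated data. Shares of peaks have Wilson 95% intervals and no test. Tables and plots used Python 3.11.15, pandas 2.3.3 and matplotlib 3.10.9.

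Named were the 8 intervals with the most desert peaks, the first desert peaks of the GC list, and the 12 highest and 12 lowest log2 fold changes among called flanking genes of at least 2 RPKM with separate line means; 1 of these genes is not reported here. Gene symbols matched RefSeq for 97.1% of genes. The members and gene lists were chosen with earlier results of these data known. Alternatives covered the desert distance, gene bodies, the overlap rule, chromosomes, the pseudocount, the filter, blocks and each line left out.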

Additional observations from a re-analysis of the deposited data

Results flagged for a closer look

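Among 46 groups of libraries, the 23 named flanking genes in each genotype, 5 had 1 library far from the others of its group by Dixon's gap test; chance gives about 1 in 20. Rasd2 was at 5.62 RPKM in d8 library 2B, where the nearest other d8 library had 10.1, and at 2.63 RPKM in GC library 2C, where the nearest other had 4.40. Col1a2 reached 11.2 RPKM in GC library 2C, above 3.66 in the next GC library. Cpe reached 14.1 RPKM in GC library 1B, above 8.40 in the next. Cyp26a1 was at 0.936 RPKM in d8 library 2C, above 0.525 in the next d8 library.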

How the results depend on the processing

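With the limit at 25 kb from starts there were 6753 desert peaks (39.6% shared, 5.06 per Mb, 22.2 kb median spacing), and at 100 kb 2094 (31.9%, 2.43 per Mb, 55.6 kb). With gene bodies ignored there were 6617. The shared share of desert peaks was 34.3% with centres within 100 bp, 45.5% in the first 4 quintiles of the list and 42.0% as a mean over 50 equal slices, an average chosen after seeing the data. It stayed within its counting interval with gene bodies ignored, with a wider overlap required, without chromosomes 8 and 11 and on autosomes alone. Density per Mb of whole chromosome was 1.54. Allowing AGANGGC moved the motif share of desert peaks to 77.8%.

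Called flanking genes numbered 139 (69 higher, 70 lower in d8). With a GC line left out they numbered 2 to 66 (0 to 22 higher, 2 to 44 lower), and with a d8 line left out 3, 12 or 69 (0 to 38 higher, 3 to 31 lower); without GC line 1 or d8 line 3, where limma called none higher, 213 and 183 were higher at an unadjusted p under 0.05. The lone GC line is then assumed to vary like the d8 lines. No share over all genes was computed for the unadjusted counts given here and below. Called flanking genes were 81 (35 lower; 4.95%, background 4.32%) with each chromosome centred. Without the filter on low values they were 40 (15 higher, 25 lower; 1.3%, background 1.4%). Without chromosome 11 they were 50 (29 higher, 21 lower; 3.19%, background 3.23%). At 100 kb from starts, where 777 genes were tested, they were 65 (33 higher, 32 lower; 8.37%, background 8.76%). Calls fell with chromosome 11 out of the fit for genes elsewhere too; the cause was not tested. With single libraries as units they were 339 (184 higher, 155 lower; 20.7%, background 20.4%) with line as a random block. They were 388 (208, 180; 23.7%, background 23.5%) with the full sample number as replicate block. With the sample letter as replicate block they were 499 (272, 227; 30.5%, background 29.3%). These backgrounds over all genes also stand beside the family and cohesin counts that follow. The line numbers do not pair the genotypes: deviations of lines sharing a number correlated at -0.158 (line 1) and 0.150 (line 2), over genes.

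Family genes called were 3, and 0 to 6 with a line left out, 1 with chromosomes centred, 0 without the filter (13 at an unadjusted p under 0.05), 1 without chromosome 11, 5 without libraries d8 2B and GC 2C, 9 with the random block, and 10 and 16 with the replicate blocks. Cohesin genes called were 1, and 0 to 1 with a line left out, 0 with chromosomes centred, without the filter or without chromosome 11 (5, 5 and 4 unadjusted), 4 with the random block, and 5 and 7 with the replicate blocks. No named gene changed direction in any fit; 18 of 23 kept their call with chromosomes centred, 6 without the filter, and 2 without GC line 1 or without d8 line 3.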
